A study of Mus musculus with 9 samples.

Results

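One of the 9 arrays of this series, the array labelled control 2, carried a set of signals unlike those of the other 8. It was chosen on its own measured signals, above all those of Umod, Slc34a1, Kap, Miox, Ttr and Fgb, so that what follows describes 1 array and tests nothing. It was set against the arrays labelled control 1 and control 3, and the 6 arrays of treated mice served as a check on the range of each gene. The label of control 2 gives liver, as do those of the other arrays, and how its signals came to differ was not tested.

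The series compared samples labelled as liver of 9 female MRL +/+ mice, a strain used for its autoimmune disease, with 1 array per mouse and 3 mice per group. The mice were 11 weeks old at death. Over 6 weeks, with 2 intraperitoneal injections per week, they received dichloroacetyl chloride (DCAC) or dichloroacetic anhydride (DCAA) at 0.2 mmol/kg in 100 µl corn oil, or the oil alone (control). The last injection preceded death by 24 h. The labels call the control mice untreated, while the design text says that they were given corn oil. All values are signal intensities of Affymetrix probe sets, on a linear scale that the authors set to a common trimmed mean per array, and they have no unit of RNA.

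Hepatocytes make most proteins of the blood plasma, turn ammonia into urea, make bile acids and break down foreign compounds. The kidney filters plasma in the glomerulus and takes back salts, glucose, amino acids and small proteins along the tubule, whose segments each carry their own transporters. Both organs make glucose and burn fatty acids, so that some enzymes are shared between them.

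Differences are given as log2 of the signal on control 2 minus the mean log2 signal of control 1 and control 3. Signals below the 25th percentile of their own array were first raised to that percentile, which was 59.8 for control 2 and ranged from 48.7 to 67.3 elsewhere. Where the dim side stood at this floor, the fold is a lower bound and is written as "at least". A gene was counted as higher or lower where the difference was at least 4-fold and control 2 also lay outside the range of all other 8 arrays, both on the signals raised to the floor. Signals of different probe sets cannot be set against each other as amounts of RNA.

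Of 45037 probe sets, 1636 (3.63%) were higher on control 2 and 1147 (2.55%) were lower. With 1 probe set for each of 18193 genes, 899 genes (4.94%) were higher and 671 (3.69%) were lower. The difference reached 16-fold in 227 genes higher and 277 lower, and 64-fold in 55 higher and 122 lower. Within 2-fold lay 13976 genes (76.8%), and the median difference over all genes was 0.12. A gene at the floor on control 1, control 2 and control 3 takes this same difference of 0.12 from the floors alone. Such genes are among those within 2-fold, and how many they are was not counted. Control 1 and control 3 were 4-fold apart in 142 genes (0.78%). Counted by the same rule, each against the other arrays of its own group, each of the other 8 arrays stood alone with between 40 and 277 probe sets higher and between 56 and 218 lower. Control 2 was part of the reference of control 1 and control 3, and of the range set for every other array. These counts are therefore not fully like its own.

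**Figure D1:**
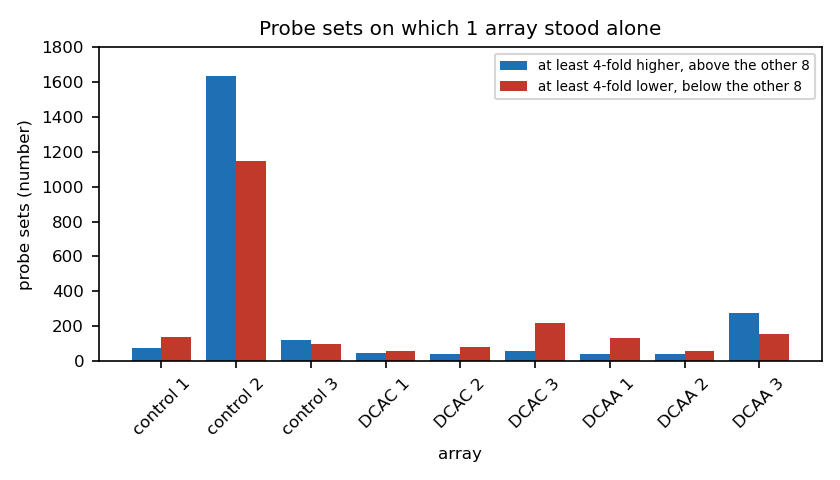
Number of probe sets (vertical axis, from 0) on which 1 array (horizontal axis) was at least 4-fold from the mean of the other arrays of its group and beyond all other 8 arrays, higher in blue and lower in red. Control 2 has 1636 higher and 1147 lower, and the next highest counts are 277 higher on DCAA 3 and 218 lower on DCAC 3.

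Measures of RNA quality on control 2 lay among those of the other arrays or just below them. Its 3'/5' ratio was 1.27 for actin (1.30 to 2.59 on the other arrays), 0.835 for Gapdh (0.785 to 1.37) and 3.63 for pyruvate carboxylase (2.85 to 12.8). Its median signal was 183.5, between 156.9 and 214.1 on the others. Its median rank correlation with the other arrays, over all probe sets of each pair, was 0.806, against 0.861 to 0.905 for the others. With control 2 included, the median SD of the log2 signal over the 3 controls was 0.355 per gene, against 0.153 over control 1 and control 3, 0.248 in the DCAC group and 0.286 in the DCAA group. The value for control 1 and control 3 rests on 2 arrays and the others on 3 each. The median of an SD comes out lower with fewer arrays, so that 0.153 is not on a par with the rest.

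The 6 marker genes that picked out the array show both sides of the pattern. Umod, which encodes uromodulin, the main protein of normal urine made by the thick ascending limb, read 27216 on control 2. Its signal was 37.2 on control 1 and 57.5 on control 3, and between 36.1 and 69.6 with a median of 57.4 on the 6 treated arrays. The difference of 8.91 is at least 482-fold. Slc34a1, the sodium phosphate cotransporter of the proximal tubule, read 29632 on control 2, 177.0 on control 1 and 142.5 on control 3, with treated arrays from 133.7 to 236.0. Kap, the androgen-regulated protein of the mouse proximal tubule, read 27176 on control 2 against 363.4 and 384.8 on the other controls and at most 518.2 on a treated array. Miox, which opens the ring of myo-inositol in the proximal tubule, read 37874 on control 2, the highest signal on that array, against 230.4 and 89.8. None of these 4 genes overlapped between control 2 and any other array, a gap that came with the choice of the array by these genes.

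The liver markers ran the other way. Fgb, the beta chain of fibrinogen, read 8.8 on control 2, below its floor, and 48160 and 44848 on control 1 and control 3. The treated arrays lay between 45436 and 60761, with a median of 58525. The difference of -9.60, at least 777-fold, was the most negative of all 18193 genes by the probe set used for each. A further probe set of Apoa1, not the one used, differed by -9.74. Ttr, transthyretin, the carrier of thyroid hormone and retinol-binding protein, is covered by 4 probe sets, which read between 22.1 and 450 on control 2 and between 34974 and 64893 on the other 8 arrays. Alb, albumin, read 1678 on control 2, which is 3.77% of the mean of control 1 (43840) and control 3 (45064). These hepatocyte signals were low on control 2 but not at the floor in every case, and Alb and 3 of the 4 Ttr probe sets stood above it.

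**Figure D2:**
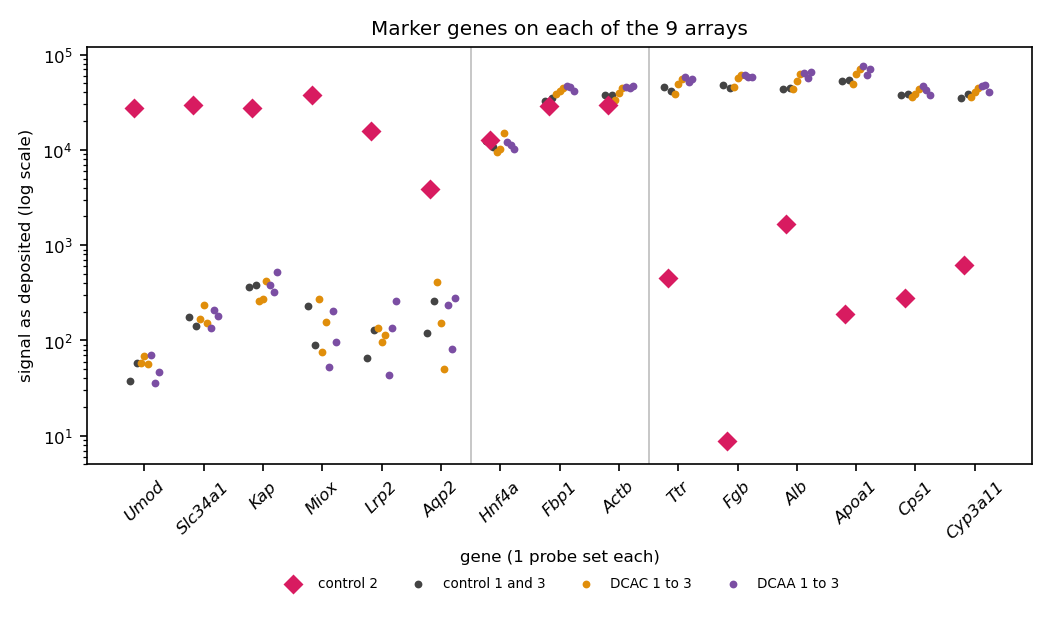
Deposited signal (vertical log axis) of 15 genes (horizontal axis) on each of the 9 arrays, with control 2 as a pink diamond and the other arrays as dots. The kidney genes at the left are high on control 2 alone, Hnf4a, Fbp1 and Actb in the middle lie near the other arrays, and the liver genes at the right are low on control 2 alone.

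To show the sequence around the starts of such genes, 4 promoters are printed from RefSeq on the mouse build GRCm38.p6, from 250 bases before to 50 bases after the annotated start. Capitals mark the best match to the palindrome GTTAATNATTAAC, known from promoters active in liver and kidney, with at most 2 of its 12 fixed letters changed on either strand. The promoters are those of Umod (chr7:119479213-119479512, minus strand), Slc12a1 (chr2:125152350-125152649, plus strand), Alb (chr5:90460620-90460919, plus strand) and Fgb (chr3:83049814-83050113, minus strand).
Umod: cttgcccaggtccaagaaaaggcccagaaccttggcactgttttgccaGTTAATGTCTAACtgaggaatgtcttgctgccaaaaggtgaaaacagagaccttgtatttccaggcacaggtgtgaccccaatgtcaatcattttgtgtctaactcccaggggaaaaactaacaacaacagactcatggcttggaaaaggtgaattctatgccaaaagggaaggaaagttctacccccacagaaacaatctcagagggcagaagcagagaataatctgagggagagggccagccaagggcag
Slc12a1: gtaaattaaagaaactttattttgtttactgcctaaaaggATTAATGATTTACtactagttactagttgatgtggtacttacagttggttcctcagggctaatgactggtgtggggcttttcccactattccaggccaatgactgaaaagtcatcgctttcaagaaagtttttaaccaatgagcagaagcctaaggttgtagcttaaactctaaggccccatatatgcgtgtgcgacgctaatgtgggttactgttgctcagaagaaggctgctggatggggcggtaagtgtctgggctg
Alb: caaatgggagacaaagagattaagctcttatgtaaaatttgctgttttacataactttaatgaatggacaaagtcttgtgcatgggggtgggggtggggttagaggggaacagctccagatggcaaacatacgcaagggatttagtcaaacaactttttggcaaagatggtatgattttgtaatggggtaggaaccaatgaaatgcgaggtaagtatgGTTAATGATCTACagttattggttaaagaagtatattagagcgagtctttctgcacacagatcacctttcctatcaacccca
Fgb: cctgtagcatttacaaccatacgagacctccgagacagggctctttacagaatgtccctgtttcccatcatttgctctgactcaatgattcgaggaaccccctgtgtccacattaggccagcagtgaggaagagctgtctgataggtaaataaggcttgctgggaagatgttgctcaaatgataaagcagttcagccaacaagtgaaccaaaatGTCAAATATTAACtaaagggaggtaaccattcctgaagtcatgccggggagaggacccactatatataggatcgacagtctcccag
The match begins at base -202 in Umod, -210 in Slc12a1, -32 in Alb and -36 in Fgb, counted from the start. Such letters stood in any promoter of 30 of the 702 higher genes with a promoter sequence (4.27%) and of 31 of the 514 lower genes (6.03%). The same held for 130 of the 13236 genes not counted as either (0.982%) and for 191 of all 14452 genes compared (1.32%). Counted by promoter and not by gene, the share was 1.36% of all 32851 promoters of this length. The promoters of Slc34a1, Kap and Miox held no such match in this window, and Ttr was not among the 31 lower genes with one. Every promoter printed above holds a match, so that the printed set does not stand for the markers as a whole. A match is a description of letters and no evidence of binding.

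The 48 lists of genes, by organ function, cell type, other organ or presence in most cells, together held 651 genes. Of these, 579 had a probe set with 1 symbol and 72 were not measured in this way. Among 149 genes of kidney function, 111 (74.5%) were higher on control 2 and 2 were lower, with a median difference of 3.85. Among 185 genes of liver function, 151 (81.6%) were lower and 1 was higher, with a median of -4.84. Over all genes the shares were 4.94% higher and 3.69% lower. The probe set used for a gene was chosen partly by its signal on control 2, which can favour a higher call. Taking the median over all probe sets of a gene instead, the median of renal transcription factors fell from 3.24 to 1.77. That of the thick ascending limb fell from 5.67 to 4.19. Protein uptake stayed at 6.18, renal hormones rose from 2.43 to 2.61, and every other kidney list fell. The counts were not redone in this way. Because the array was picked out by genes of these same kinds, the counts describe how far the pattern extends and give it no support.

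**Figure D3:**
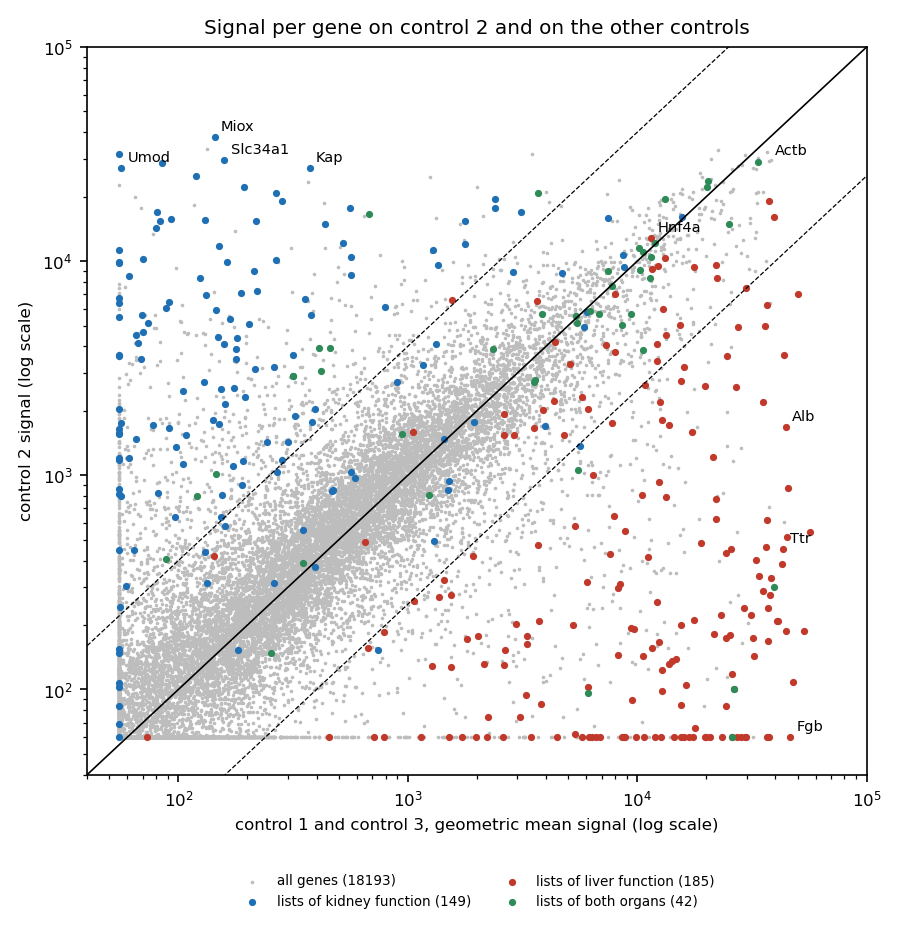
Signal of each of 18193 genes on control 2 (vertical log axis) against the geometric mean of control 1 and control 3 (horizontal log axis), with signals raised to the floor of each array. The solid line marks equal signal and the dashed lines 4-fold. Genes of kidney function (blue) lie mostly at the upper left, those of liver function (red) mostly at the lower right, and those of both organs (green) on both sides of the line, 28 of 42 of them not counted.

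The filter of the kidney was represented by 10 measured genes of the glomerulus and podocyte, 8 of them higher, with a median difference of 2.38. Podxl, the charged coat protein of podocytes, read 2518 on control 2 against 159.6 and 146.7. Nphs1, nephrin of the slit diaphragm, read 639.9 against 120.4 and 195.7, a difference of 2.06 just past the threshold. Npnt, a matrix protein of the basement membrane, showed the widest difference of the list, at least 6.65, and 3 of its 5 probe sets met the rule. Plce1 lay inside the range of the other arrays at 373.9.

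Transporters of the proximal tubule, which recovers most of the filtered solute, were higher in 15 of 19 genes for sodium and other solutes (median 3.53) and in 11 of 14 genes for amino acids (median 4.52). Slc5a2, the main glucose transporter of the early tubule, read 8957 on control 2 and at most 354.7 on any other array. Slc5a12, a lactate transporter, read 6379 against 7.3 and 9.8, at least 116-fold. Slc7a9 and Slc3a1, the light and heavy subunits of the cystine transporter, differed by 7.54 and 2.84. Cltrn, collectrin, which brings amino acid transporters to the brush border, differed by 7.72. Slc6a13, a transporter of GABA and taurine, was the exception, with 1365 on control 2 against 6191 and 5168. Slc26a1, a sulfate transporter, read 1480 against 1433 and 1452.

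Of 13 organic ion transporters, 10 were higher, with a median of 3.98. Slc22a12, the urate exchanger URAT1, read 19004 on control 2 against 258.4 and 309.5, and Slc22a8, the anion transporter OAT3, read 14281 against 81.7 and 77.6. Abcc2, a canalicular export pump that the proximal tubule also has, read 856.0 against 1724 and 1290. Protein uptake genes were higher in 5 of 6, with a median of 6.18. Lrp2 and Cubn, the endocytic receptors megalin and cubilin, differed by 7.41 and at least 7.49. Lrp2 has 3 probe sets, whose differences ran from 1.83 to 8.42, and 2 of them met the rule.

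Enzymes and brush border peptidases of the proximal tubule were higher in 17 of 26 genes and lower in 1, with a median of 4.90. Mep1a, the alpha subunit of meprin, read 15427 against 221.2 and 215.7. Gatm, which makes the precursor of creatine, read 10142 against 191.1 and 370.2. Acsm3, an acyl-CoA synthetase, was the lower gene, with 153.2 against 793.4 and 691.0. The list also held genes with similar signals on all arrays. Among these Cyp2j5, an epoxygenase, read 16101 against 14922 and 16334, Glyat, which joins glycine to acids, read 9410 against 9261 and 8349, and Ddc, which makes dopamine, read 5761 against 6855 and 5276.

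Segments after the proximal tubule followed the same direction. All 11 measured genes of the thick ascending limb were higher (median 5.67). Slc12a1, the furosemide-sensitive NKCC2 cotransporter of that segment, read 15505 against 153.2 and 110.8, although its other probe set differed by 1.49 alone. Egf, the growth factor precursor of the distal nephron, read 22098 against 238.2 and 157.3. In the distal and connecting tubule 9 of 11 genes were higher (median 4.69), Klk1, tissue kallikrein, most of all with 31746 against 30.9 and 23.4 (3 of its 4 probe sets met the rule). Slc12a3, the thiazide-sensitive cotransporter, read 11273 against 36.9 and 27.5, while its other probe set differed by -0.18. In the collecting duct 14 of 19 genes were higher (median 3.34), among them Aqp2, the vasopressin-regulated water channel, with 3884 against 121.1 and 261.4, and Atp6v1b1, a proton pump subunit of intercalated cells, with 1719 against 75.1 and 80.0.

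Transcription factors of the kidney were higher in 8 of 14 genes, with a median of 3.24. Pax8, needed for nephron formation, read 2161 against 182.7 and 140.9 (0.22 on its other probe set), and Hoxd8 read 4357 against 284.6 and 112.9. Six2, a factor of nephron progenitors in the embryo, read 153.2 against 232.0 and 141.2. Hormone and receptor genes were split. Kl, klotho, the coreceptor of FGF23, read 9789 against 17.5 and 19.9 (1.86 on its other probe set), and Pth1r, the parathyroid hormone receptor, read 12166 against 571.9 and 478.1. The receptors Agtr1a for angiotensin and Avpr1a for vasopressin, which the liver also carries, were below the other 8 arrays by less than 4-fold, with differences of -1.22 and -1.40.

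**Figure D4:**
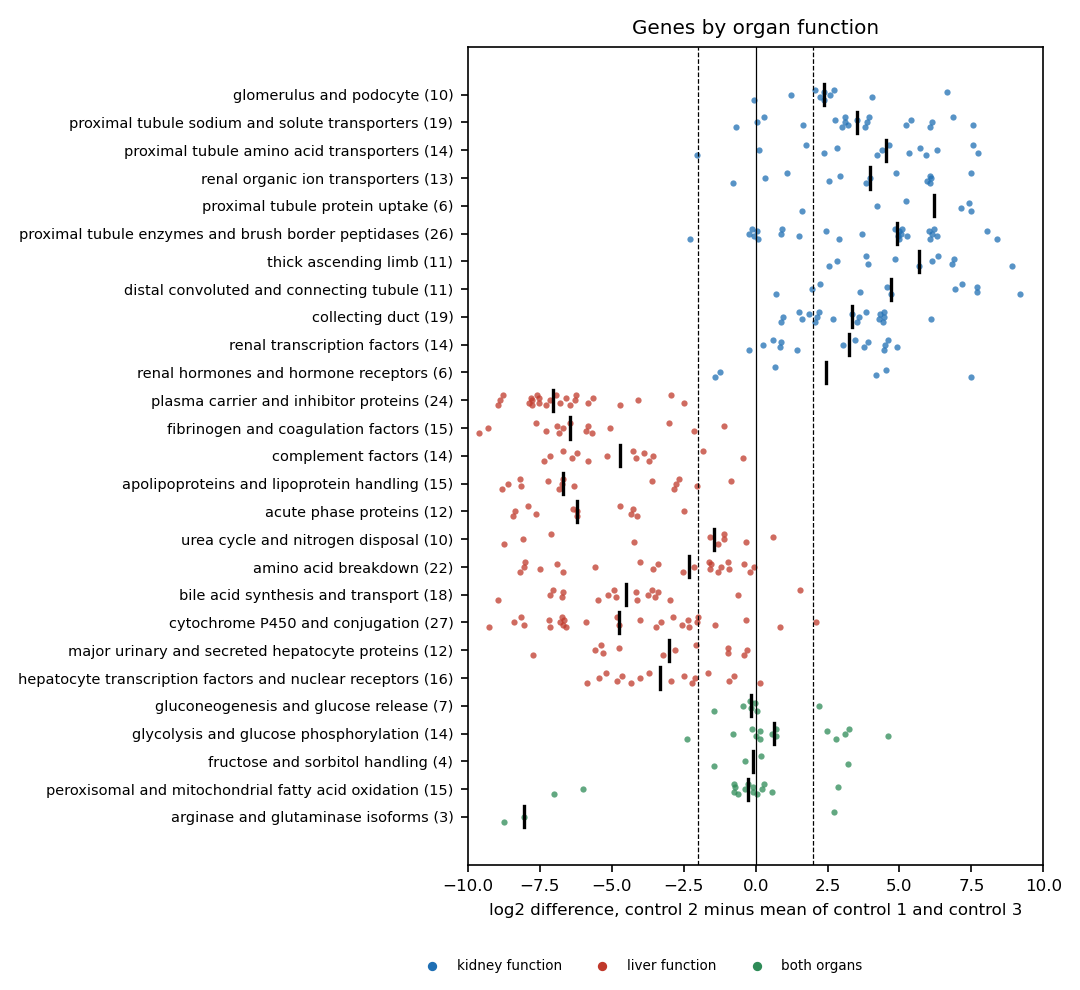
Log2 difference (horizontal axis, control 2 minus the mean of control 1 and control 3) of each measured gene, in rows by organ function with the number of genes in brackets. Black bars mark medians and dashed lines 4-fold. The 11 rows of kidney function have medians from 2.38 to 6.18, the 11 rows of liver function from -7.04 to -1.43, and 4 of the 5 rows of both organs lie within 1 of 0.

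Secreted plasma proteins were the liver group with the widest gap. All 24 measured carriers and inhibitors were lower on control 2, with a median of -7.04 and a summed signal of 14352 against 728162 or more on each other array. Hp, haptoglobin, read 40.9 on control 2 against 26984 and 32791. Ahsg, fetuin-A, read 108.1 against 48301 and 47051. The smallest difference of the list was -2.47 for Kng1, kininogen, which read 4947 against 28041 and 26926.

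Of 15 fibrinogen and coagulation genes, 14 were lower (median -6.44). Plg, plasminogen, read 24.7 against 38056 and 37084, and F2, prothrombin, read 240.1 against 28865 and 29307. F13b, a subunit of factor XIII, was below the other 8 arrays at 3753, by less than 4-fold. Complement genes were lower in 12 of 14 (median -4.71). C4bp, a complement inhibitor, read 17.9 against 8974 and 10960, whereas Cfb, factor B, at 3411 and C2 at 1932 did not reach 4-fold. Apolipoproteins and their partners were lower in 14 of 15 genes (median -6.71). Apoa1, the main protein of HDL, read 188.5 against 52809 and 53960. Apoe read 7045 against 50469 and 49564, and Apob read 3610 against 24837 and 24412, so that both kept a signal far above the floor. Apom, a carrier of sphingosine-1-phosphate, read 4045 and lay inside the range of the treated arrays.

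All 12 acute phase genes were lower, with a median of -6.21, and here the treated arrays differed from the other controls as well. Saa1, serum amyloid A, read 162.6 on control 2, 2954 on control 1 and 3698 on control 3. The treated arrays lay between 19481 and 68791, with a median of 58028. Lcn2, lipocalin 2, read 153.1 on control 2, 2465 and 2875 on the other controls, and between 13245 and 49002 on the treated arrays. Orm1, orosomucoid, read 15.8 against 19543 and 21909. Control 1 and control 3 were thus below every treated array for Saa1 and Lcn2, and control 2 was below all of them.

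Nitrogen and amino acid metabolism was divided. Of 10 genes of the urea cycle and nitrogen disposal, 4 were lower (median -1.43). These were Cps1, which starts the cycle in the mitochondrion (276.3 against 37903 and 38130), Otc, Arg1 and Nags. Ass1 and Asl, the cytosolic enzymes that the kidney also uses to make arginine, read 1667 and 4090 and differed by -1.09 and -1.57. Arg1, the arginase of the urea cycle, read 6.7 against 23522 and 28254, and Arg2, the mitochondrial isoform, read 799.9 against 137.1 and 105.0. In amino acid breakdown 12 of 22 genes were lower (median -2.33). Tat and Tdo2, which start the breakdown of tyrosine and tryptophan, read 42.5 and 12.8 on control 2, both below the floor, so that their differences of -8.02 and -8.20 are lower bounds on the size of the gap. Hpd, the next enzyme of tyrosine breakdown, read 16079 against 40293 and 38938, and Hgd and Fah, which complete it, differed by -0.92 and -1.19. Csad, of taurine synthesis, read 4186 against 4252 and 4539.

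Bile acid genes were lower in 16 of 18 (median -4.50). Cyp7a1, the rate-limiting enzyme of the classical route, read 74.6 on control 2, 1560 on control 1 and 3225 on control 3, with treated arrays from 2821 to 12225. Slc10a1, which takes bile acids up from blood, read 40.9 against 29242 and 30017, and Abcb11, the bile salt export pump, read 29.6 against 9410 and 7807. Slc10a2, the sodium-dependent bile acid transporter of ileum and kidney, read 419.8 against 164.5 and 123.6, above all other arrays but by less than 4-fold.

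Cytochrome P450 and conjugation genes were lower in 23 of 27 and higher in 1 (median -4.74). Ces1c, a plasma carboxylesterase, read 56.5 against 37909 and 35649, and Cyp1a2 read 27.7 against 14030 and 18364. Cyp2e1, which oxidizes ethanol and small solvents, kept 6262 against 35223 and 38682. Cyp4a14, a fatty acid omega-hydroxylase regulated by PPAR alpha, was the higher gene. It read 6590 on control 2, 1331 on control 1 and 1808 on control 3, and between 354.5 and 1380 with a median of 414.0 on the treated arrays. Control 2 was thus above all other arrays, and the other controls were at the upper end of the remaining 8.

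Other secreted hepatocyte proteins were lower in 8 of 12 genes (median -3.01). Mup3, a major urinary protein made by the liver, read 16.4 against 16360 and 9945 (0.12 on its other probe set), and Igf1 read 481.4 against 20515 and 17683. Selenop, the selenium carrier of plasma, read 19158 against 38024 and 37273 and was not counted. Hepatocyte transcription factors and nuclear receptors were lower in 12 of 16 genes (median -3.33). Foxa2 and Nr1i3 (CAR) read 11.0 and 24.4 on control 2, both at the floor, against at least 1621 on every other array. Hnf4a, which the proximal tubule shares with hepatocytes, read 12777 on control 2, 12290 on control 1, 10831 on control 3 and between 9429 and 15132 on the treated arrays. It differed by 0.15, and its 4 probe sets differed by between -0.08 and 0.15.

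Of 42 genes of both organs, 28 were not counted, 9 (21.4%) were higher and 5 (11.9%) were lower, with a median of -0.01. Over all genes 4.94% were higher and 3.69% lower. Of 7 genes of glucose output, 6 were not counted. G6pc, glucose-6-phosphatase, read 11068 against 7940 and 14169, Pck1, which controls the route, read 9118 against 7367 and 14275, and Fbp1 read 29190 against 32192 and 35394. Slc2a2, the glucose carrier GLUT2, was below all other arrays at 3830, by less than 4-fold. Isoforms of glycolysis differed in direction, with 5 of 14 genes higher and 1 lower. Ldhb, the heart-type lactate dehydrogenase subunit, read 16536 against 675.5 and 685.1, while Ldha read 10487 against 11822 and 11203. Hk1, Pfkp, Aldoa and Pkm were the other higher genes, and Pklr, the liver pyruvate kinase, was the lower one at 1057 against 7228 and 4178.

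In fatty acid oxidation 12 of 15 genes were not counted. Cpt1a, the gate of mitochondrial oxidation, read 5571 against 5041 and 5812. Fabp1, the liver fatty acid binding protein, read 302.3 against 41627 and 37313, and Hao1, a peroxisomal oxidase of glycolate, read 96.1 against 6221 and 5953. Hao2, its kidney relative, read 16941 against 3083 and 3178. Acot1, an acyl-CoA thioesterase, was higher at 3072 against 371.9 and 473.7. Oxct1, which uses ketone bodies and was looked up after its value was seen, read 18289 against 63.1 and 215.4.

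The 12 genes with the largest differences in each direction were also taken without regard to any list, and 8 of the 12 were members of one in each direction. The higher genes were Klk1, Umod, Cdh16, Napsa, Dnase1, Miox, Spink1, Gpx3, Cltrn, Fxyd2, Slc12a3 and Slc34a1. For Klk1, Umod, Cdh16, Napsa, Dnase1, Spink1 and Slc12a3, control 1 or control 3 stood at the floor, so that their differences are lower bounds. Cdh16, a cadherin named for the kidney, read 22674 on control 2 against 52.6 and 46.4. Gpx3, the glutathione peroxidase that the kidney releases into plasma, read 33394 against 61.0 and 289.6. The lower genes were Fgb, Plg, Ces1c, Pon1, Hp, Slc10a1, Hamp2, Mug1, Apoc4, Akr1c6, Rdh7 and Ahsg. All of these but Ahsg stood at the floor on control 2. Their differences are bounds, and their order follows the signal on control 1 and control 3. Pon1, paraoxonase of HDL, read 21.3 against 31710 and 31958. Hamp2, a hepcidin gene, read 49.9 against 26534 and 31264, with treated arrays from 15350 to 33472, while its other probe set differed by 0.02. Akr1c6, a steroid dehydrogenase, read 39.8 against 27308 and 26787.

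Of the 100 strongest signals on control 2 and the 100 strongest on the mean of control 1 and control 3, 20 genes were in both sets. On control 2 the first 10 were Miox, Gpx3, Akr1a1, Tpt1, Klk1, Igfbp7, ND5, Uqcrb, Slc27a2 and Slc34a1, and 5 of them met the rule for higher. Akr1a1 also lay above all other arrays, at 33015 against at most 27482, but by less than 4-fold. Igfbp7, a binding protein of the vessel wall, read 31709 against 2867 and 4260, but its 3 probe sets disagreed in direction, with differences from -2.96 to 3.18. Akr1a1, Tpt1, ND5, Uqcrb and Slc27a2 differed by between -0.19 and 0.55. All 10 genes with the strongest signal on control 1 and control 3 were lower on control 2, from Apoa2 (543.7 against 58893 and 54978) to Serpina1c (606.8 against 41998 and 45486).

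Markers of other cells and organs were read next, since a piece of tissue may hold several. In RNA from whole tissue, fewer cells of a type and less RNA per cell cannot be told apart. Over 141 such genes, 9 (6.38%) were higher and 23 (16.3%) lower, beside 4.94% and 3.69% of all genes. The 141 include the 4 kidney markers that picked out the array, all higher, and 9 hepatocyte markers, 8 of them lower. No gene was counted in the lists of adrenal gland (12 genes), pancreas (10), skeletal and cardiac muscle (10), lung (6), adipose tissue (6), ovary, uterus and oviduct (6) or lymphocytes (11). Summed signals of the adrenal list came to 1810 on control 2, with the remaining 8 arrays between 1899 and 3536. Those of the pancreas list were 5664 against 2049 to 3663, with Cela1, an elastase, at 5150 and the defining enzymes Cpa1, Cpb1 and Ctrb1 at the floor on control 2. Their part in the pattern of control 2 was not tested.

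Of 13 endothelial genes, 3 were lower, 1 was higher and 9 were not counted (median -0.69). With no fold limit, 4 lay above and 5 below all other arrays, a share that was not counted over all genes. The lower genes were Clec4g, Oit3 and Lyve1. Clec4g and Oit3, which mark liver sinusoidal endothelium, read 62.9 and 48.2 on control 2 and at least 986.1 and 175.7 on the other arrays, although a further probe set of Clec4g differed by -0.37. Emcn, endomucin, a general vessel marker that is strong in glomerular capillaries, was the endothelial gene that was higher, with 809.5 against 179.0 and 130.8. Of 12 macrophage and Kupffer cell genes, 7 were lower (median -2.56). Clec4f, a Kupffer cell lectin, read 14.9 on control 2, 1017 on control 1 and 2778 on control 3. This list also differed between the other controls, by a median of -1.67 for control 1 minus control 3, so that 1 array weighs on its size. Against control 1 alone its median was -1.39, and against control 3 alone -3.67. Of 12 genes of fibroblasts, stellate cells and mesangium, 3 were lower, none was higher and 9 were not counted, with a median of -0.06. The lower genes were Reln, Dcn and Lum, and Reln and Dcn each have a further probe set that did not meet the rule (-0.997 for Reln and 0.39 for Dcn). Another 4 genes of the list lay above all other arrays by less than 4-fold, among them Acta2, smooth muscle actin, with 1884 against 514.0 and 541.6.

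Some genes chosen as markers of other organs were higher. Vil1, villin of the brush border of gut and proximal tubule, read 2680 against 55.8 and 65.2, and Guca2b, uroguanylin, read 3697 against 187.8 and 101.9. Krt7, a keratin of bile duct and collecting duct, read 2042 against 92.2 and 178.9, whereas Krt19 and Sox9, further bile duct markers, were at the floor on control 2. Slc4a1, the anion exchanger of red cells and of intercalated cells, read 1105 against 134.7 and 222.0, with 2 of its 3 probe sets meeting the rule, while the red cell genes Hba-a1, Alas2 and Epb42 were not counted. Fabp2, listed for the intestine, was lower at 38.1 against 2500 and 3000, and every other array read 1881 or more. Xist read 9823 on control 2 and between 8694 and 17511 on the others, and the Y-linked genes Eif2s3y, Kdm5d and Uty lay inside the range of the other arrays, which are all labelled female.

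**Figure D5:**
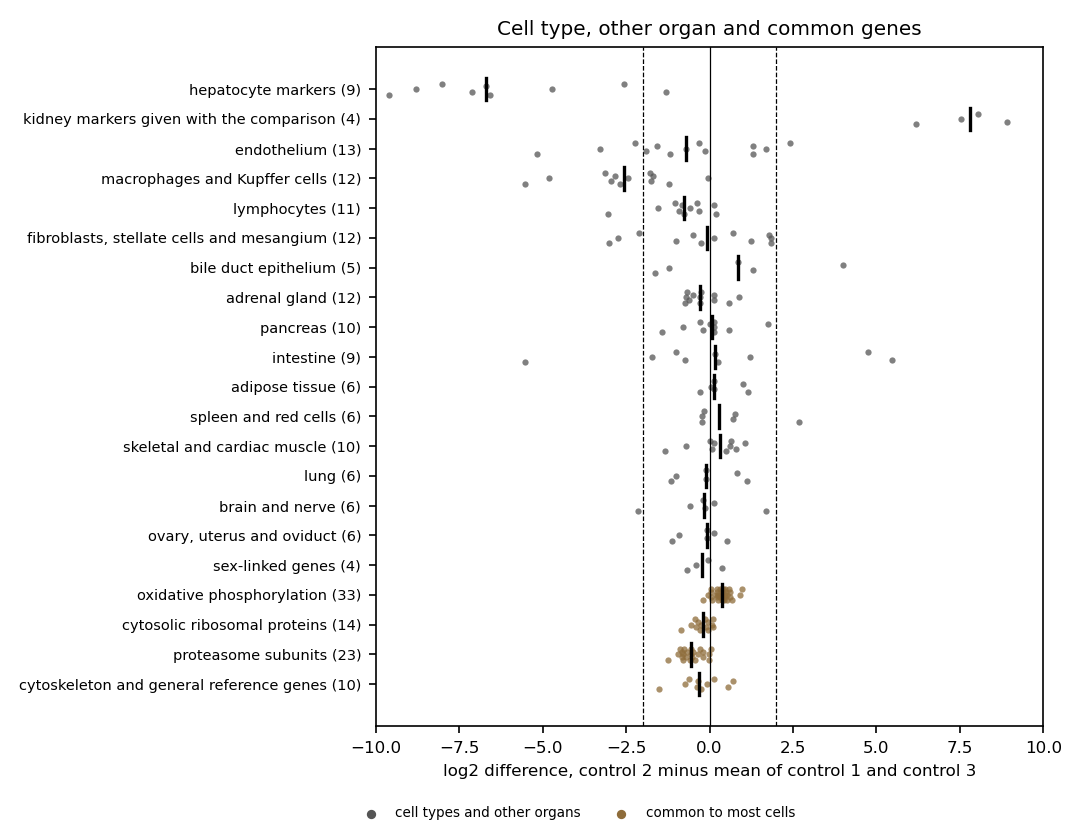
Log2 difference (horizontal axis, control 2 minus the mean of control 1 and control 3) of each measured gene, in rows for cell types, other organs and genes common to most cells, with the number of genes in brackets. Black bars mark medians and dashed lines 4-fold. Apart from hepatocytes, the 4 kidney markers and macrophages (-2.56), every median lies within 1 of 0.

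None of the 80 genes common to most cells was counted in either direction. Their median was -0.03. Subunits of oxidative phosphorylation had a median of 0.37 (0.30 to 0.84 over the 10 settings), and 21 of 33 were above all other 8 arrays. The share of all genes beyond the other 8 arrays by any amount was not counted, so that such counts have no background here. Cox8a, a subunit of cytochrome oxidase, read 15461 against 7800 and 8623, and no other array was above 13812. Proteasome subunits had a median of -0.55 (-0.62 to -0.35 over the settings), with 15 of 23 below all other arrays. Cytosolic ribosomal proteins had a median of -0.18 and reference genes one of -0.31, and both medians were above 0 after quantile normalization. Actb, beta actin, read 29365 against 37726 and 37299, and B2m, beta-2 microglobulin, read 10522 against 27698 and 32489.

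The treated arrays changed the count little. In all 1585 genes were 4-fold from the mean of control 1 and control 3, and 15 of them were not beyond the other 8 arrays once signals were raised to the floor. Of these 15, 12 lay inside the range of the deposited signals too. Hspa1b, an inducible heat shock gene, was one of the 12, with 4003 on control 2, 1165 and 614.3 on the other controls, and up to 4487 on a treated array. Ccl5, a chemokine of T cells, was one of the other 3, with 22.4 on control 2, 383.4 and 641.4 on the other controls, and 24.6 on the lowest treated array, so that both low signals lay under the floor. Nearest to the threshold on the higher side were F3, Loxl1 and Npr3 just inside, at up to 4.02-fold, and Slc9a5, Adm and Pard6b just outside, at 3.99-fold or more. On the lower side these were Hlcs, Acss2 and Clu just inside, at up to 4.01-fold, and Slc39a2, Plin2 and Ifit1 just outside, at 3.97-fold or more. These places hold for the probe set used. The other probe set of Pard6b met the rule, at 2.69, while Loxl1, Npr3 and Acss2 each have a further probe set that did not. Among the 899 higher genes, 340 had control 1 or control 3 at the floor, and among the 671 lower genes 164 had control 2 at the floor, so that these folds are lower bounds.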

How the data were processed

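RNA labelled as liver of 9 mice was measured on 1 Affymetrix array each, and samples were grouped by their labels. The authors deposited 1 intensity for each probe set, not logged, and the submitters' processing notes name GCOS, the Affymetrix software, with no version. In the deposited table each array has a mean of 500 once 2% of probe sets are trimmed at each end. How the signals were summarised is not given in the sources used here. Detection calls were not used here, and the number of arrays limits the precision.

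From these values, 64 manufacturer control probe sets were set aside for the 3'/5' ratios, and the other 45037 were compared with no filter. Genes were named from the array annotation, where 34945 probe sets carry 1 symbol, 932 several and 9160 none. Of these identifiers 34741 matched the RefSeq gene table (GRCm38.p6), and 0 symbols changed. For each gene the probe set with the highest average of control 2 and the mean of the other 8 arrays, in log2, was used. Control 2 thus weighed as much as the other arrays together, which can favour higher calls for genes dim on those arrays. Of 254 list genes with several probe sets, 111 were called, 68 of them by every probe set, and no other probe set of these 111 was 4-fold the opposite way. With 1 array on one side there is no replicate spread and no group test.

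The array, its comparison and the gene lists were chosen with earlier results of these data known. Named genes are the 6 markers, up to 4 members of each list by size of difference and up to 4 more that set the organs apart, up to 12 genes per direction, the 10 strongest signals on control 2 and 3 genes on either side of the threshold. Genes named outside this rule were chosen after their values were seen. The code was tested on simulated data. Python 3.11.15 with pandas 2.3.3, numpy 2.4.6 and matplotlib 3.10.9 was used. Alternatives were the floor, offset, scaling, filter on dim probe sets, reference arrays, fold, use of the range and choice of probe set. The counts of each other array were added after seeing the data.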

Additional observations from a re-analysis of the deposited data

How the results depend on the processing

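With control 1 or control 3 left out of the reference, between 1683 and 1750 probe sets were higher on control 2 and between 1176 and 1200 were lower. Without a floor 2124 were lower. With dim probe sets filtered out 895 were higher, a filter that asks for signal on a treated array as well. At 2-fold 4304 were higher and 2877 lower, and at 8-fold 726 and 592. Under the other settings both counts stayed within 1.5 times. The median of all genes was 0.12 on the scaling as deposited with the floor, 0.08 without the floor and 0.001 after quantile normalization, and differences are not corrected for that shift. The 25 lists with a median of at least 4-fold kept its sign in all 10 settings, and 3 of them (renal transcription factors, renal hormones, macrophages) fell below 4-fold in some setting. Of the other 23 lists, 11 changed sign in some setting. No paired analysis was possible because the comparison has 1 array on one side and no test.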
